A study of Homo sapiens with 39 samples.

Results

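PLK4, its partners in centriole duplication and 2 genes of the mitotic surveillance pathway were examined in human cells with lowered or raised TRIM37. The 8 genes are PLK4, CEP192, CEP152, STIL, SASS6, CENPJ, TP53BP1 and USP28, chosen by name for these roles, out of 23710 gene symbols in each table. RNA sequencing covered 39 libraries in 9 groups. The TRIM37 knockout group of hTERT RPE1, a human retinal pigment epithelial line immortalised with telomerase, has 9 libraries, numbered singly, and wild type RPE1 has 9, numbered as 3 sets of 3. Whether a set is 1 culture is not stated, so the wild type may hold fewer than 9 independent samples. The CHP-134 line, a neuroblastoma line, gave 2 clones that the labels call partial TRIM37 knockouts, clone 1 and clone 2, with 3 libraries each, and 3 libraries of wild type CHP-134, which serve both clones. RPE1 clones 4 and 5 carry a doxycycline-inducible TetOn TRIM37 construct, and each gave 3 libraries after 24 h in 1 µM doxycycline and 3 without it. No group combines doxycycline with cells that lack the construct, so the drug and TRIM37 induction cannot be told apart there. Each CHP-134 and TetOn group is 1 clone, and for the RPE1 knockout the labels name none. Nothing in the labels says that replicates were separate cultures, so the q values could reflect nothing beyond technical spread.

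TRIM37 is a ubiquitin ligase of the centrosome. Centrioles, the cores of the centrosome, are copied once per cell cycle: CEP192 and CEP152 bring the kinase PLK4 to the parent centriole, PLK4 phosphorylates STIL, STIL brings in SASS6, which builds the cartwheel, and CENPJ (also called CPAP) extends the new microtubule wall. When centrosomes are lost or mitosis runs long, 53BP1 (the product of TP53BP1) and the deubiquitinase USP28 stabilise p53, which then halts the cell through targets such as CDKN1A. TRIM37 is known to limit centrosome-like assemblies that form around PLK4 and CEP192 at the protein level, a layer that RNA tables do not measure.

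The windows around the annotated starts of 3 of these genes are printed because the responses of PLK4 and STIL in RPE1 knockout differed from those of both CHP-134 clones (for STIL against clone 2, not after GC subtraction), while USP28 is the gene that was lower in all 3 comparisons of reduced TRIM37. Each window runs from 250 bases before to 50 after the start in the RefSeq annotation of GRCh38.p14, and capitals mark motif letters on either strand: the cell cycle motif CHR (TTTGAA), the E2F motif (TTTNNCGC) and the CCAAT box (CCAAT). The PLK4 window is the first of 3 annotated for it, on the plus strand at chr4:127880643-127880942, the STIL window lies on the minus strand at chr1:47314098-47314397, and the USP28 window on the minus strand at chr11:113875523-113875822.
PLK4: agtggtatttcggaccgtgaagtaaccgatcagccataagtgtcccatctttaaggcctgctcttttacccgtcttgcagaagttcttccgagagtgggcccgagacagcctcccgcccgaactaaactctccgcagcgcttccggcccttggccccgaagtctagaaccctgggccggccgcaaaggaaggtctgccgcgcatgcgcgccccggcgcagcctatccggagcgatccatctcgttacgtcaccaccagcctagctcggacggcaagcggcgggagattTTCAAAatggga
STIL: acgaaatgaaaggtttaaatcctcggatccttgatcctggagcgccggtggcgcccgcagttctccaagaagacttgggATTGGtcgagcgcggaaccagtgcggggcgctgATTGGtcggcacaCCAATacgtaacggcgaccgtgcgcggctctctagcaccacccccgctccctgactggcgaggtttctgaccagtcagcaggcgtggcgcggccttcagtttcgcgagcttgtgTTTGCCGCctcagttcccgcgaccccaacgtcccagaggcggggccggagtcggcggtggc
USP28: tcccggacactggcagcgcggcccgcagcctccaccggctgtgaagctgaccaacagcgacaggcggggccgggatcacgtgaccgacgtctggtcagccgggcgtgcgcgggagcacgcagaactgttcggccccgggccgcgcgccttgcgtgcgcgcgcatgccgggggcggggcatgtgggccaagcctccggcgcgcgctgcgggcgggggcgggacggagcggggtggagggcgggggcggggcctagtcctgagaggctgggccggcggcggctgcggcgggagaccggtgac
The printed PLK4 window holds a CHR on its minus strand, the STIL window holds CCAAT boxes and an E2F motif, and the USP28 window holds none of these letters. Over the windows of all 8 genes, CHR letters were found for 3 genes (PLK4, CEP192 and CEP152), E2F letters for 4 (CEP192, STIL, SASS6 and CENPJ) and CCAAT for 5 (PLK4, CEP192, CEP152, STIL and TP53BP1). Among all 35116 windows, 15.2% held a CHR, 6.89% an E2F motif and 34.6% a CCAAT box. These shares are per window, whereas a gene was counted if any of its windows matched, and PLK4 has 3. The CCAAT letters of PLK4 lay in a window that is not printed. A match is a description of letters and not of a bound site.

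The deposited files give 1 value per gene and comparison and none per library, so a gene is described by its log2 fold change, the standard error (SE) and the q value, all from the authors' deposited tables. A gene is called where the authors' q is under 0.05, and usable where the authors did not mark it as low or as an outlier. Library depth is unknown, and the mean counts of a table, summed over genes, came to between 23601173 and 36605941. The direction of each table was read from TRIM37, so TRIM37 cannot check for swapped groups. The authors' deposited tables put TRIM37 at log2 fold changes of -1.95 (SE 0.046) for RPE1 knockout, -1.66 (SE 0.034) for CHP-134 clone 1 and -1.75 (SE 0.042) for clone 2. With doxycycline the authors' deposited tables put it at 3.19 (SE 0.044) for clone 4 and 2.64 (SE 0.042) for clone 5. Neuroblastoma markers (8 genes, including PHOX2A and MYCN) summed to 74155 and 74506 mean counts in the CHP-134 tables and to between 39.0 and 64.6 in the RPE1 tables. TH and DBH, which mark catecholamine synthesis, were low in CHP-134. The 9 retinal pigment epithelium markers summed to between 24095 and 49354 mean counts in the authors' deposited RPE1 tables, against 350.4 and 377 in their CHP-134 tables. Most of that sum was KRT8 and KRT18, with MITF and OTX2 also usable in RPE1, whereas RPE65, TYR, RLBP1 and BEST1 were low in all 3 RPE1 tables. In both CHP-134 tables MITF, OTX2 and BEST1 were usable. Being usable therefore does not set the lines apart for MITF and OTX2, and for BEST1 it goes the other way.

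With reduced TRIM37, USP28 RNA fell in RPE1 and in both CHP-134 clones, by 14.6% to 18.6%. PLK4 fell in both CHP-134 clones but was slightly higher in RPE1 knockout cells, and STIL fell in both CHP-134 clones and was not called in RPE1. With the median of genes of like GC content subtracted, the PLK4 and STIL calls in both CHP-134 clones were lost. With TRIM37 induced, no gene of the 8 was called, where 1.95% of all genes were in TetOn clone 4 and 2.97% in TetOn clone 5. All 8 were usable in all 5 tables, and none changed by as much as 1.5-fold anywhere.

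In RPE1 knockout cells 1 of the 8 genes was higher and 3 were lower than in wild type, while 53.6% of all usable genes were called (26.6% higher, 26.9% lower). In CHP-134 clone 1, 4 were lower and 0 higher, against 18.7% of all genes called (9.6% higher, 9.07% lower). In clone 2, 5 were lower and 1 higher, where 46.2% of all genes were called (22% higher, 24.2% lower). The counts in RPE1 are close to the background, and the wild type libraries are shared between the 2 CHP-134 comparisons. The median log2 fold change of the 8 genes was -0.017 in RPE1 knockout, -0.15 in clone 1 and -0.18 in clone 2, against -0.0022, -0.0068 and -0.012 for all usable genes. All 8 values were below 0 in clone 1 and 7 of 8 in clone 2, against 4 of 8 in RPE1 knockout. With the median of genes of like GC content subtracted, 7 of 8 values were below 0 in clone 1, 5 of 8 in clone 2 and 4 of 8 in RPE1 knockout. The median of the 8 genes was then -0.011 in RPE1 knockout, -0.092 in clone 1 and -0.045 in clone 2. Calls then numbered 0 higher and 1 lower in clone 1 and 1 higher and 1 lower in clone 2. Of all genes, 7.63% were then higher and 5.57% lower in clone 1, and 16.0% higher and 15.7% lower in clone 2.

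**Figure D1:**
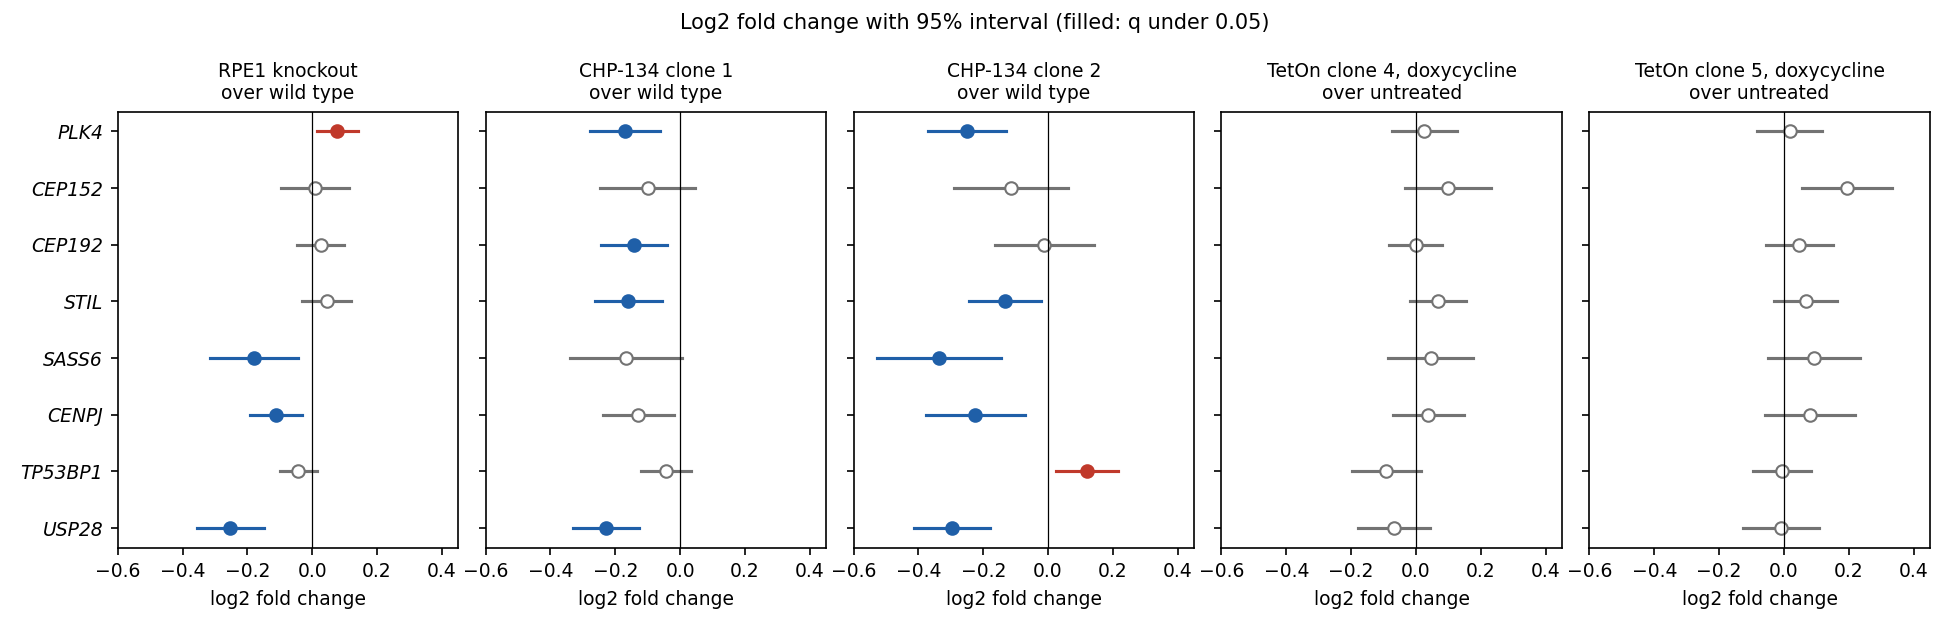
Log2 fold change of each of the 8 genes (horizontal axis, log2 scale) in the 5 comparisons, from the authors' deposited tables; points are estimates, bars are 95% intervals from the authors' standard errors, and filled points have q under 0.05 (red higher, blue lower). USP28 lies left of 0 in the first 3 panels, PLK4 lies right of 0 in RPE1 knockout and left of 0 in both CHP-134 clones, and no point is filled in the TetOn panels.

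PLK4, the kinase that sets centriole number, had a log2 fold change of 0.077 (SE 0.033, q = 0.0344) in RPE1 knockout against wild type in the authors' deposited table, an increase of 5.51% (95% interval 0.941% to 10.3%). In the authors' deposited tables it was -0.171 (SE 0.055, q = 0.0155) in CHP-134 clone 1 and -0.250 (SE 0.061, q = 0.000225) in clone 2. PLK4 RNA therefore fell by 11.2% in clone 1 and by 15.9% in clone 2 relative to wild type CHP-134. Genes of like base composition were lower too. Those in the same 1 of 20 GC bins as PLK4 (38.4% GC in its longest transcript) had medians of -0.073 in clone 1 and -0.17 in clone 2, and with that trend subtracted PLK4 stood at -0.098 (adjusted p = 0.258) and -0.080 (adjusted p = 0.342). Subtracting the chromosome median also ended both calls, leaving -0.14 (adjusted p = 0.0604) in clone 1 and -0.12 (adjusted p = 0.1003) in clone 2. The RPE1 increase, by contrast, was 0.12 (adjusted p = 0.000916) after GC subtraction.

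CEP192, the scaffold that recruits PLK4, was called in 1 comparison: the authors' deposited table gives -0.142 (SE 0.052, q = 0.0347) in CHP-134 clone 1, where it fell by 9.37%. Its log2 fold change was -0.011 (SE 0.078, q = 0.92) in clone 2 and 0.026 (SE 0.037, q = 0.574) in RPE1 knockout in the authors' deposited tables. The clone 1 call was lost with the GC trend subtracted (-0.091, adjusted p = 0.257). CEP152, which shares the role of recruiting PLK4, was called nowhere: in the authors' deposited tables it was 0.0092 in RPE1 knockout, -0.10 in clone 1, -0.12 in clone 2 and 0.099 in TetOn clone 4. Its value in TetOn clone 5 was 0.195 (SE 0.071, q = 0.13) in the authors' deposited table, higher than 97.5% of usable genes there but not called.

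STIL, the PLK4 substrate that starts cartwheel assembly, fell in both CHP-134 clones: the authors' deposited tables give -0.160 (SE 0.053, q = 0.0184) in clone 1 and -0.133 (SE 0.056, q = 0.0393) in clone 2. In RPE1 knockout it was 0.045 (SE 0.038, q = 0.33) in the authors' deposited table. Neither CHP-134 call held with the GC trend subtracted, which left -0.11 (adjusted p = 0.170) in clone 1 and -0.010 (adjusted p = 0.916) in clone 2.

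SASS6, the cartwheel protein, fell by 11.7% in RPE1 knockout (log2 fold change -0.180, SE 0.069, q = 0.02, authors' deposited table) and by 20.8% in clone 2 (-0.337, SE 0.098, q = 0.00198, authors' deposited table). In clone 1 it was -0.166 (SE 0.088, q = 0.18) in the authors' deposited table and was not called. The lowest GC content of the 8 genes is that of SASS6, 34.9%, and its GC bin had a median of -0.23 in clone 2, where subtracting it left -0.11 (adjusted p = 0.445). CENPJ, which extends the centriole wall, fell by 7.41% in RPE1 knockout (log2 fold change -0.111, SE 0.041, q = 0.0136, authors' deposited table) and by 14.4% in clone 2 (-0.224, SE 0.078, q = 0.0116, authors' deposited table). In clone 1 the authors' deposited table gives -0.129 (SE 0.056, q = 0.0898). After GC subtraction CENPJ was -0.086 (adjusted p = 0.0638) in RPE1 knockout and -0.080 (adjusted p = 0.475) in clone 2, so both calls were lost. In clone 2, 13 of its 20 nearest genes on chromosome 13 were also called lower and 3 higher, with a median of -0.24. Of all genes 24.2% were called lower and 22% higher there. In RPE1 knockout the neighbours went the other way, with 2 of 20 called lower and 11 higher and a median of 0.12. The shares of all genes there were 26.9% lower and 26.6% higher.

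**Figure D2:**
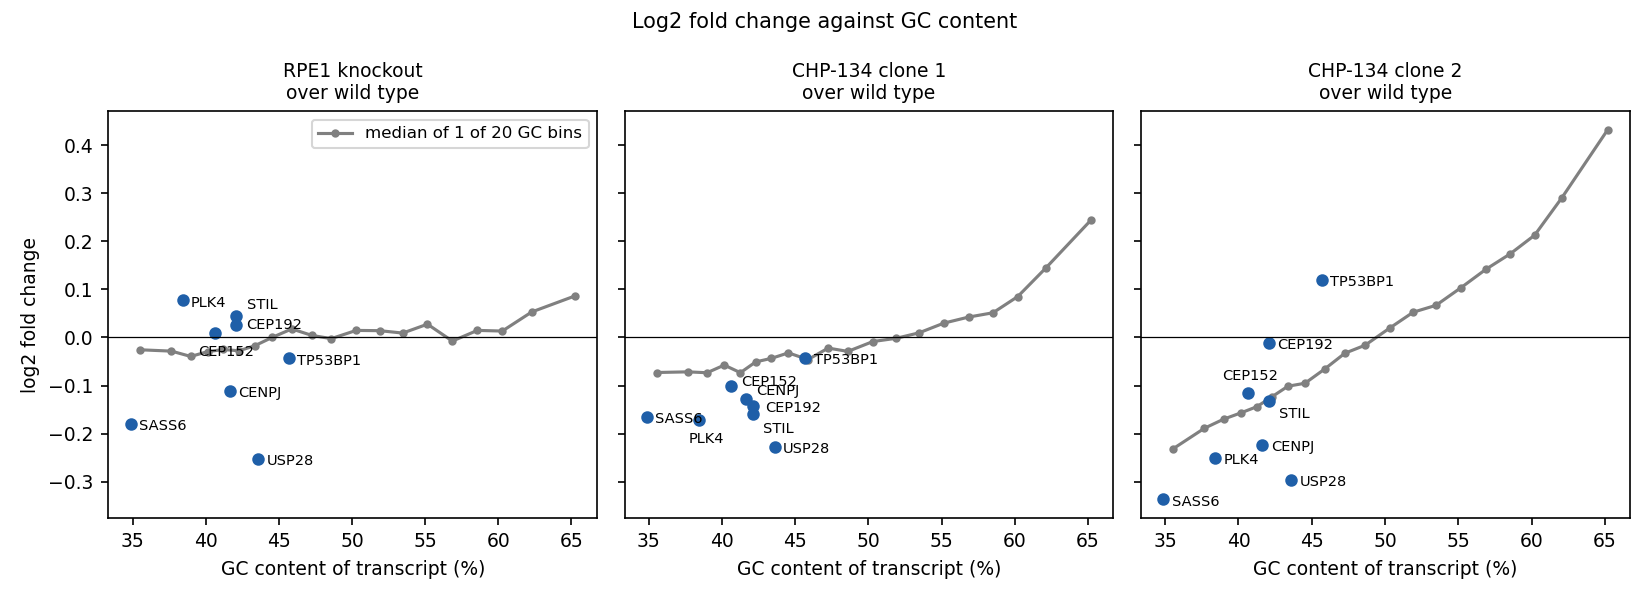
Log2 fold change against the GC content of the longest transcript for RPE1 knockout, CHP-134 clone 1 and clone 2; grey points are the medians of 20 bins of usable genes and blue points are the 8 genes. In clone 2 the grey line climbs from -0.23 in the bin of lowest GC to 0.43 in the bin of highest GC. USP28, SASS6 and CENPJ lie below the medians of their bins in all 3 panels.

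USP28, the deubiquitinase that acts on p53 with 53BP1, was the 1 gene of the 8 called lower in all 3 comparisons of reduced TRIM37. The authors' deposited tables put it at -0.253 (SE 0.053, q = 5.5e-06) in RPE1 knockout, -0.228 (SE 0.052, q = 0.000257) in CHP-134 clone 1 and -0.297 (SE 0.059, q = 4.46e-06) in clone 2. USP28 thus fell by 16.1% in RPE1 knockout, by 14.6% in clone 1 and by 18.6% in clone 2. Of all genes, 169 of 11054 usable in all 3 tables, 1.53%, were called lower in all 3. The calls remained with the GC trend subtracted, at -0.24 (adjusted p = 2.5e-05) in RPE1 knockout, -0.18 (adjusted p = 0.0057) in clone 1 and -0.20 (adjusted p = 0.00516) in clone 2. They also remained with chromosome medians subtracted. Its 20 nearest genes on chromosome 11 included 9 called lower in RPE1 knockout, 6 in clone 1 and 7 in clone 2, while 26.9%, 9.07% and 24.2% of all genes were. Of the 20, 5 had lower log2 fold changes than USP28 in RPE1 knockout, 1 in clone 1 and 2 in clone 2, and the medians of those neighbours were -0.12, -0.046 and -0.064. With TRIM37 induced, the authors' deposited tables put USP28 at -0.068 (SE 0.057, q = 0.8) for TetOn clone 4 and -0.0088 (SE 0.060, q = 0.99) for TetOn clone 5.

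TP53BP1, which encodes 53BP1, was called in clone 2 alone: the authors' deposited tables give 0.120 (SE 0.049, q = 0.0329) in clone 2, -0.043 (SE 0.039, q = 0.496) in clone 1 and -0.043 (SE 0.029, q = 0.208) in RPE1 knockout. The value is uncertain, because 28.7% of the exon bases of TP53BP1 (3732 bases) overlap TUBGCP4 on the opposite strand and the strand setting of the counting is not given. TUBGCP4 had a log2 fold change of -0.192 (SE 0.054, q = 0.00131) in clone 2 in the authors' deposited table, the opposite sign to TP53BP1.

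Induction of TRIM37 moved none of the 8 genes past the threshold: 0 of 8 were called in TetOn clone 4, where 1.95% of all genes were (0.716% higher, 1.23% lower), and 0 of 8 in TetOn clone 5, where 2.97% were (0.795% higher, 2.17% lower). At an unadjusted two-sided p under 0.05, 0 of the 8 passed in clone 4 and 1 (CEP152) in clone 5, from the ratio of fold change to SE. Over the 8 genes the log2 fold changes ran from -0.091 (TP53BP1) to 0.099 (CEP152) in clone 4 and from -0.0088 (USP28) to 0.195 (CEP152) in clone 5 in the authors' deposited tables. STIL was at 0.069 and 0.067, SASS6 at 0.045 and 0.093, CENPJ at 0.038 and 0.081 and CEP192 at -0.00013 and 0.048 in clones 4 and 5 of the authors' deposited tables. For PLK4 the authors' deposited tables give 0.026 (SE 0.051, q = 0.95) in clone 4 and 0.018 (SE 0.051, q = 0.97) in clone 5. The 95% intervals of PLK4 ran from -5.02% to 9.13% in clone 4 and from -5.52% to 8.52% in clone 5. At the smallest ratio of fold change to SE that was called in each table, PLK4 would have needed an estimated rise of 12.4% in clone 4 or 11.9% in clone 5. This is a cutoff on the estimate and not a limit of detection, so true changes of smaller size are not excluded.

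The responses of RPE1 and CHP-134 to reduced TRIM37 were compared by the difference of their log2 fold changes, with the SEs combined and p-values adjusted over all genes usable in both tables. PLK4 was 0.25 higher in the RPE1 knockout response than in that of clone 1 (95% interval 0.12 to 0.37, adjusted p = 0.000627), and 0.33 higher than in that of clone 2 (0.19 to 0.46, adjusted p = 1.4e-05). STIL was 0.21 higher than in clone 1 (adjusted p = 0.00715) and 0.18 higher than in clone 2 (adjusted p = 0.0211). CEP192 differed from clone 1 by 0.17 (adjusted p = 0.0265) but its difference from clone 2 was 0.037 (95% interval -0.13 to 0.21). TP53BP1 differed from clone 2 by -0.16 (adjusted p = 0.0113). In all, 3 of 8 genes differed between RPE1 knockout and clone 1, where 34.1% of all genes did (17.6% positive, 16.5% negative). Between RPE1 knockout and clone 2, 3 of 8 differed, where 46.5% of all genes did (24.2% positive, 22.3% negative). With the GC trend subtracted PLK4 differed from both clones (adjusted p = 0.0045 and 0.0111), while STIL no longer differed from clone 2 (adjusted p = 0.336), nor CEP192 from clone 1 (adjusted p = 0.119). The USP28 responses were not shown to differ: RPE1 knockout minus clone 1 was -0.025 (95% interval -0.17 to 0.12) and RPE1 knockout minus clone 2 was 0.044 (-0.11 to 0.20). Cell line, clone and the kind of TRIM37 mutation change together between these tables and cannot be told apart.

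Between the 2 CHP-134 clones, TP53BP1 alone of the 8 differed (clone 2 minus clone 1, 0.16, 95% interval 0.040 to 0.29, adjusted p = 0.047), where 20.5% of all genes did (9.29% positive, 11.2% negative). The call was lost when genes that the authors set aside were kept, with rescaled statistics, with a 1.5-fold minimum and at an adjusted p under 0.01. Both clones share their wild type libraries, which makes this test conservative. Between the TetOn clones 0 of 8 differed, and 0.221% of all genes did.

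**Figure D3:**
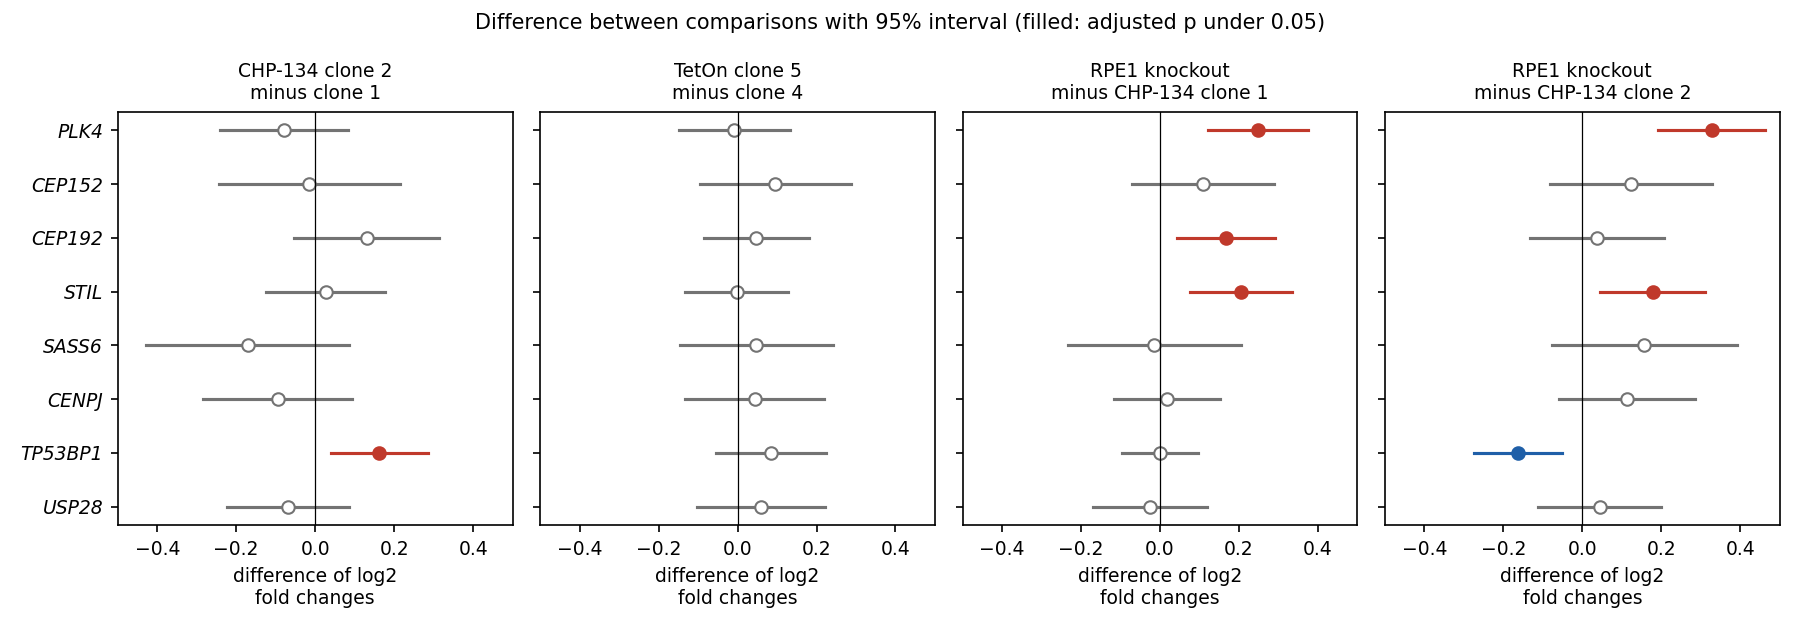
Differences between comparisons in log2 fold change (horizontal axis) for the 8 genes; bars are 95% intervals and filled points have an adjusted p under 0.05. PLK4 and STIL are filled in both panels that subtract a CHP-134 clone from RPE1 knockout, whereas USP28 is filled in no panel.

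The level of each gene was read as the mean count per kilobase of its longest transcript, which mixes both groups of a table. In the authors' deposited table for RPE1 knockout, PLK4 was highest at 495 mean counts per kilobase, followed by TP53BP1 (382), STIL (335), CEP192 (283), USP28 (259), CENPJ (237), SASS6 (162) and CEP152 (160). In the authors' deposited table for CHP-134 clone 1, TP53BP1 was highest at 538, then PLK4 (515), STIL (434), CENPJ (355), USP28 (347), CEP192 (236), CEP152 (220) and SASS6 (122). The spread between libraries is not in the tables, so neighbours in these orders are not shown to differ. PLK4 was the highest of the 8 in the 3 RPE1 tables and came next after TP53BP1 in both CHP-134 tables, and the lowest gene was CEP152 in the 3 RPE1 tables and SASS6 in both CHP-134 tables.

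**Figure D4:**
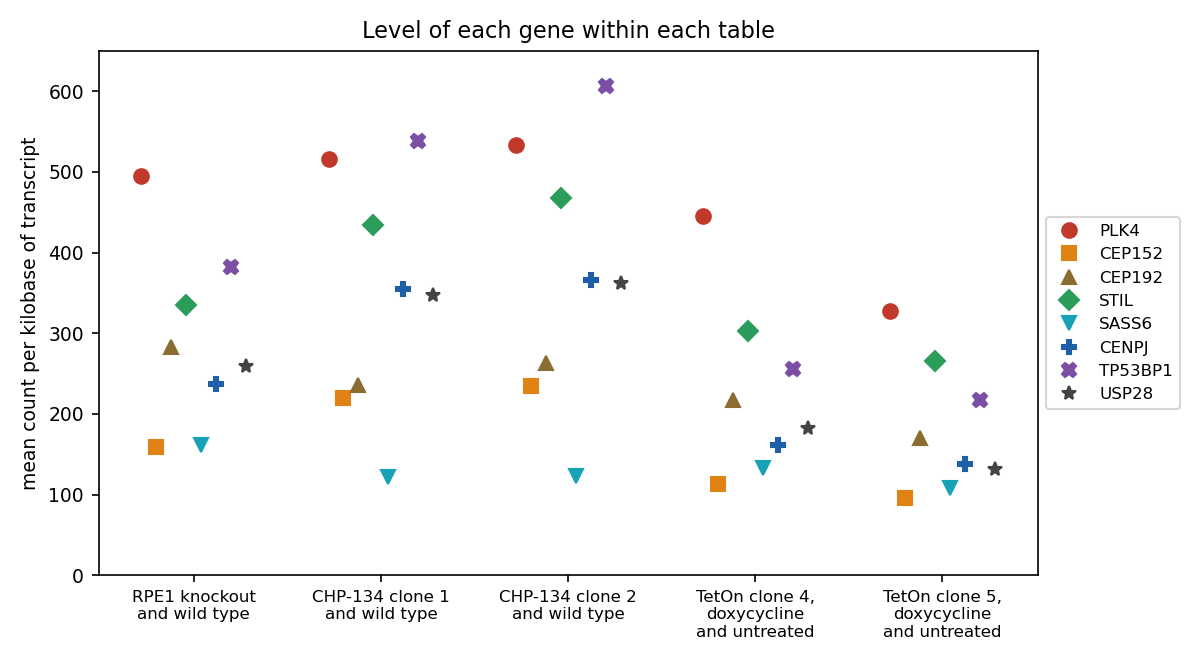
Mean count per kilobase of transcript (linear axis from 0) for each of the 8 genes in the 5 tables, each value averaging both groups of its comparison. PLK4 is at 495, 515, 534, 445 and 328 across the tables, and TP53BP1 is above it in the CHP-134 tables alone; tables were normalized separately.

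The genes whose log2 fold changes lay nearest to those of PLK4 over the 5 comparisons, by straight-line distance among 8358 genes, were PRIM2 (0.036), MBD2 (0.041), MARCH7 (0.046), HNRNPR (0.054) and SP3 (0.054), where the median distance was 0.394. STIL was the nearest of the other 7 genes at 0.138, at rank 307, and TP53BP1 was the farthest at 0.427.

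Of 27 further centriole assembly genes, 12 of 24 usable ones fell and 2 rose in CHP-134 clone 2, where 24.2% of all genes fell and 22% rose. With the GC trend subtracted, 6 of 24 fell and 1 rose there, against 15.7% and 16.0% of all genes. In clone 1, 4 of 24 fell and 0 rose (9.07% and 9.6% of all genes), and in RPE1 knockout 5 of 27 fell and 6 rose (26.9% and 26.6%). With the GC trend subtracted, 2 of 24 fell and 0 rose in clone 1, against 5.57% and 7.63% of all genes. In RPE1 knockout 6 of 27 then fell and 8 rose, against 26.6% and 26.7%. RTTN, which is needed for centriole elongation, fell in both clones (-0.330, SE 0.056, q = 1.67e-07 in clone 1 and -0.197, SE 0.055, q = 0.00118 in clone 2, authors' deposited tables), and CEP57L1 fell in both (-0.168 and -0.436, authors' deposited tables). KIAA1731 (CEP295), which converts centrioles to centrosomes, was also lower in both, at -0.172 (q = 0.0473) in clone 1 and -0.204 (q = 0.0499) in clone 2 in the authors' deposited tables. Whether RTTN, CEP57L1 and KIAA1731 stayed called with the GC trend subtracted is not given here. In RPE1 knockout CEP135 fell (-0.324, SE 0.055, q = 2.28e-08, authors' deposited table) and POC1B rose (0.654, SE 0.064, q = 2.64e-23, authors' deposited table). POC1B lies on chromosome 12, whose genes had a median of 0.51 in RPE1 knockout; none of the 8 genes lies there. CEP97, a partner of CCP110 at the centriole tip, was the 1 gene of this list called on induction, at 0.326 (SE 0.062, q = 1.72e-05) in TetOn clone 5 in the authors' deposited table, and 0.093 (SE 0.065, q = 0.734) in TetOn clone 4. Among all genes 1.95% were called in TetOn clone 4 and 2.97% in TetOn clone 5.

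In the distal appendage and PIDDosome list, LRRC45, a linker protein, rose in all 3 comparisons of reduced TRIM37, at 0.210 (q = 0.00064) in RPE1 knockout, 0.531 (q = 5.66e-08) in clone 1 and 0.621 (q = 4.42e-08) in clone 2 in the authors' deposited tables. CASP2, the caspase activated by the PIDDosome, fell in clone 1 (-0.183, q = 0.00418, authors' deposited table), and its adaptor CRADD, on chromosome 12, rose in RPE1 knockout (0.774, q = 5.3e-18, authors' deposited table). In total 3 of 10 usable genes rose and 1 fell in RPE1 knockout, 1 of 9 rose and 1 fell in clone 1, and 1 of 9 rose and 4 fell in clone 2. The shares of all genes that rose and fell were 26.6% and 26.9% in RPE1 knockout, 9.6% and 9.07% in clone 1 and 22% and 24.2% in clone 2. With the GC trend subtracted, 1 of 9 rose and 0 fell in clone 1, and 0 rose and 4 of 9 fell in clone 2. The rise of LRRC45 in clone 2 was then no longer called. Of all genes, 7.63% then rose and 5.57% fell in clone 1, and 16.0% rose and 15.7% fell in clone 2. Of the PLK4 and CCP110 turnover genes 4 of 9 rose and 0 fell in RPE1 knockout, among them FBXW5 (0.319, q = 3.13e-08), SKP1 (0.133, q = 2.28e-05) and CUL1 (0.129, q = 0.000502) in the authors' deposited table. In clone 1, 0 of 8 were called, and in clone 2, 1 rose and 1 fell. With the GC trend subtracted, 4 of 9 rose and 0 fell in RPE1 knockout, and 0 of 8 were called in either clone.

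All 3 usable polo-like kinases besides PLK4 rose in RPE1 knockout and in clone 2, and 2 of 3 rose in clone 1, where 26.6%, 22% and 9.6% of all genes rose. PLK2, a stress-responsive kinase, was higher at 0.175 (SE 0.017, q = 1.2e-24) in RPE1 knockout, 0.928 (SE 0.12, q = 4.94e-13) in clone 1 and 1.24 (SE 0.11, q = 8.73e-26) in clone 2 in the authors' deposited tables. PLK3 rose in the same 3 comparisons, at 0.235, 0.689 and 0.877 in the authors' deposited tables, and PLK1, the main mitotic kinase of the family, rose in RPE1 knockout (0.096, q = 0.00113) and clone 2 (0.285, q = 2.52e-10), authors' deposited tables. PLK2 fell on induction in TetOn clone 5 (-0.103, q = 0.000182, authors' deposited table), and in TetOn clone 4 it was -0.145 (q = 0.1, authors' deposited table).

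Among p53 targets, the downstream end of the surveillance pathway, 19 of 20 usable genes rose and 0 fell in RPE1 knockout, 10 of 17 rose and 0 fell in clone 1, and 15 of 17 rose and 0 fell in clone 2. Among all genes 26.6% rose in RPE1 knockout, 9.6% in clone 1 and 22% in clone 2. With the GC trend subtracted, 19 of 20, 11 of 17 and 15 of 17 rose, against 26.7%, 7.63% and 16.0% of all genes. CDKN1A, which encodes the cell cycle inhibitor p21, rose by 0.410 (SE 0.028, q printed as 0) in RPE1 knockout, 1.08 (SE 0.076, q = 1.35e-42) in clone 1 and 1.74 (SE 0.086, q printed as 0) in clone 2 in the authors' deposited tables. EDA2R, a receptor induced by p53, rose by 0.731 in RPE1 knockout, 1.91 in clone 1 and 2.98 in clone 2 in the authors' deposited tables. MDM2, which encodes a ubiquitin ligase of the pathway, was 0.954 in RPE1 knockout in the authors' deposited table and lies on chromosome 12. On induction, 0 of 17 were called in TetOn clone 4, while in TetOn clone 5 CDKN1A fell (-0.138, q = 0.00108) and CCNG1 rose (0.126, q = 0.00932) in the authors' deposited table. Among all genes 1.95% were called in TetOn clone 4 and 2.97% in TetOn clone 5.

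Of the 7 pericentriolar partners 0 rose and 3 fell in clone 1, 0 rose and 4 fell in clone 2, and 2 rose and 1 fell in RPE1 knockout. With the GC trend subtracted 1 of 7 fell in each clone, against 5.57% of all genes in clone 1 and 15.7% in clone 2. BORA, an activator of PLK1 signalling, rose in RPE1 knockout (0.274, q = 1.68e-06) and fell in clone 1 (-0.280, q = 0.00479) and clone 2 (-0.211, q = 0.0119), authors' deposited tables. PCM1, the scaffold of centriolar satellites, fell in both clones (-0.117, q = 0.0412 and -0.229, q = 0.00256, authors' deposited tables). With 1 of the 7 lower in each clone after GC subtraction, BORA and PCM1 cannot both have stayed called there. In cell cycle genes, G1/S genes gave 3 higher and 4 lower of 14 in RPE1 knockout, 0 higher and 4 lower of 13 in clone 1, and 2 higher and 7 lower of 13 in clone 2. In RPE1 knockout 26.6% of all genes were higher and 26.9% lower. The shares were 9.6% higher and 9.07% lower in clone 1, and 22% higher and 24.2% lower in clone 2. CDC6, which helps load the replicative helicase, and MCM6, a subunit of that helicase, fell in all 3. The values of CDC6 were -0.112, -0.179 and -0.332 in RPE1 knockout, clone 1 and clone 2 in the authors' deposited tables. Of G2 and mitosis genes 5 of 12 rose and 4 fell in RPE1 knockout, 1 of 15 rose and 3 fell in clone 1, and 2 of 15 rose and 6 fell in clone 2, where 3 fell with the GC trend subtracted. BUB1, a spindle checkpoint kinase, was 0.093 (q = 0.0114) in RPE1 knockout and -0.179 (q = 0.000382) and -0.173 (q = 0.0016) in the clones in the authors' deposited tables. Because PLK4 and STIL are themselves cell cycle genes, a change in the share of cycling cells and a change per cell cannot be told apart.

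**Figure D5:**
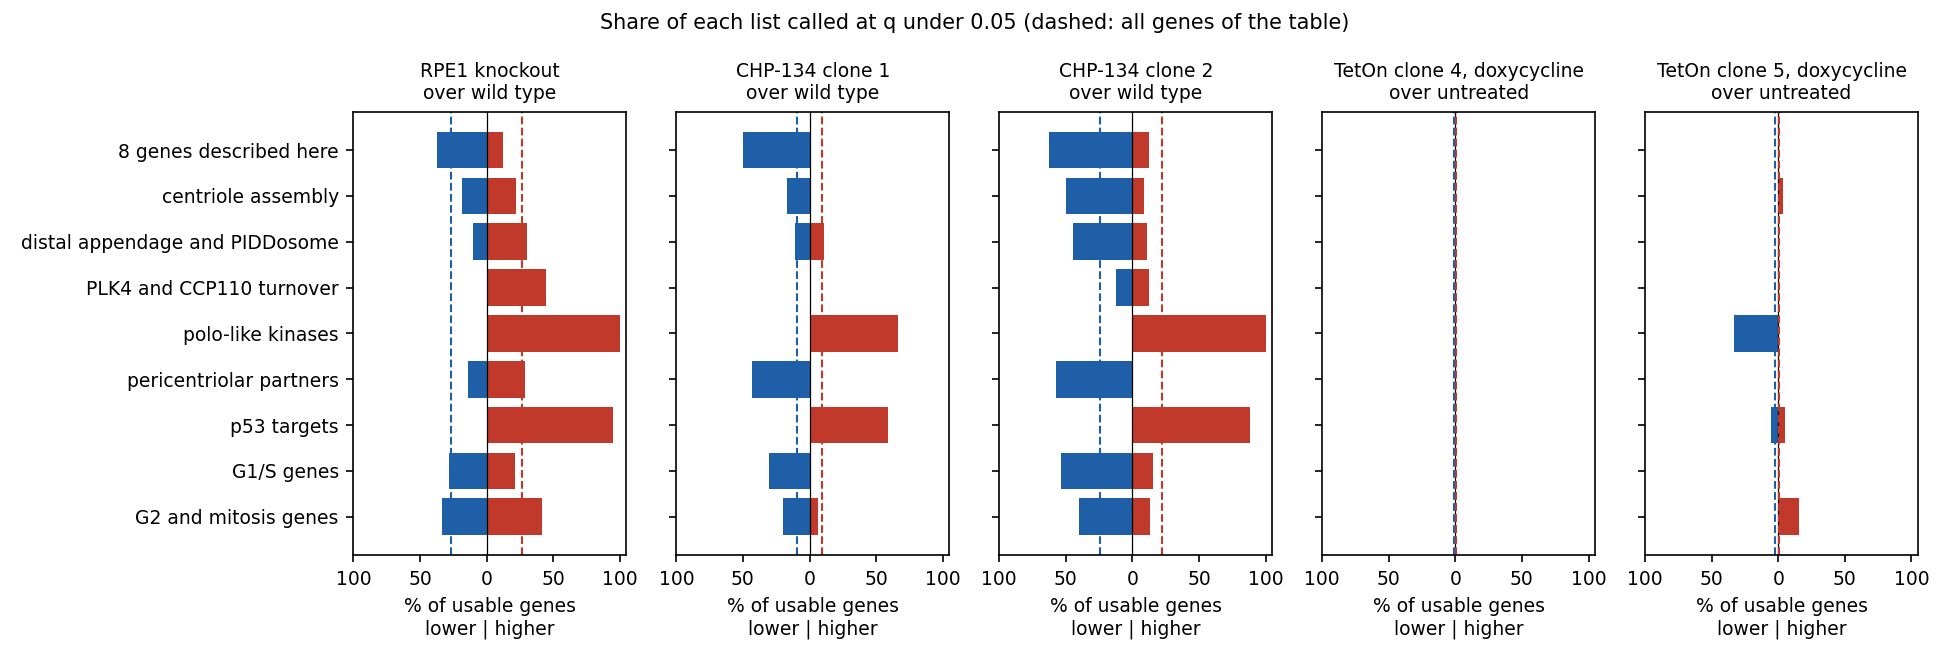
Share of each gene list called at q under 0.05 in each comparison, as percent of its usable genes, with genes called lower to the left of 0 (blue) and higher to the right (red); dashed lines give the same shares for all usable genes. The bar of p53 targets reaches 19 of 20 genes in RPE1 knockout and 15 of 17 in CHP-134 clone 2, and the bar of the 8 genes reaches 4 of 8 lower in clone 1.

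The standard errors behind these calls are those of the authors' model. When the ratios of fold change to SE were rescaled to their own central spread across all genes, 0 of the 8 genes remained called in RPE1 knockout, clone 1 or clone 2, with USP28 at adjusted p = 0.689, 0.370 and 0.823. The list medians and shares describe these genes beside the background and do not set them apart from it.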

How the data were processed

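RNA was sequenced in 39 libraries of RPE1 and CHP-134 cells, and STAR and DESeq2 were used, per the submitters' processing notes, with no versions named. The genome build, annotation, strand setting and counting method were not given in the sources used here. The deposited tables hold, per the file headers and for 23710 symbols, a mean count, a log2 fold change, its standard error and a q value (an adjusted p-value), and no value per library. The depth of single libraries is unknown, and intervals that need it are left out.

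Calls are the authors' q under 0.05. Planned count models could not be run on these tables, and group levels were not derived, because at mean counts of 10 to 20 the standard errors lay below counting error for 0% of genes in RPE1 knockout, 93.3% in CHP-134 clone 1, 34.8% in clone 2 and 100% in both TetOn tables (if mean counts are on the scale of reads), as fold changes shrunk towards 0, to a degree that differs between tables, would give; this bears on differences between tables too. Intervals (95%) use the authors' standard errors and a normal distribution. Differences between tables divide by the combined standard error, with two-sided normal p-values and Benjamini-Hochberg adjustment over all genes usable in both. The steps were tested on simulated data with 200 changed genes. GC content and transcript length come from the longest GENCODE release 29 transcript, promoter windows from RefSeq GRCh38.p14, and chromosome neighbours are the 10 on each side with a mean count of at least 100. Python 3.11.15, numpy 2.4.6, pandas 2.3.3, scipy 1.17.1 and matplotlib 3.10.9 were used.

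The 8 genes and the 11 further lists were chosen with earlier results of these data known. Named list genes were those called in the same direction in both clones of a design, or among the 3 with the smallest q in a comparison, of which the text gives a selection made after their values were seen; TUBGCP4, and TH, DBH and the retinal pigment epithelium markers, were named outside this rule. GC-subtracted counts of the lists were added after seeing the data. Some items are not reported here and were left out of the lists.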

Additional observations from a re-analysis of the deposited data

Results flagged for a closer look

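For 7 results the response to reduced TRIM37 differed between tables by the test of the difference itself. RPE1 knockout minus CHP-134 clone 1 was 0.248 for PLK4 (adjusted p = 0.000627), 0.168 for CEP192 (adjusted p = 0.0265) and 0.205 for STIL (adjusted p = 0.00715). RPE1 knockout minus CHP-134 clone 2 was 0.327 for PLK4 (adjusted p = 1.4e-05), 0.178 for STIL (adjusted p = 0.0211) and -0.163 for TP53BP1 (adjusted p = 0.0113). CHP-134 clone 2 minus clone 1 was 0.163 for TP53BP1 (adjusted p = 0.047). Of all genes, 34.1% differed between RPE1 knockout and clone 1, 46.5% between RPE1 knockout and clone 2 and 20.5% between the CHP-134 clones. With the GC trend subtracted, STIL no longer differed from clone 2, nor CEP192 from clone 1. None of the 7 remained with rescaled statistics. The part of cell line, clone and base composition in these differences was not tested beyond the GC and chromosome subtractions.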

How the results depend on the processing

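No paired analysis was possible because the tables hold no value per library, and for the same reason no library could be left out. Requiring q under 0.01 left 1 of the 8 genes called in RPE1 knockout, 1 in clone 1 and 3 in clone 2, and differences numbering 0 (clone 2 minus clone 1) and 1 (RPE1 knockout minus clone 2). At that threshold 44.8% of all genes were called in RPE1 knockout, 11.3% in clone 1 and 34.6% in clone 2. A minimum of 1.5-fold, and separately rescaling the ratios of fold change to standard error to their central spread, left 0 in each of these comparisons and differences. Keeping genes that the authors set aside left 0 differences between the CHP-134 clones. GC subtraction left 1 in clone 1 and 2 in clone 2, and chromosome medians left 1 and 3. Of all genes, 13.2% and 31.7% were called in clones 1 and 2 after GC subtraction, and 17.4% and 42.8% after chromosome medians. The TetOn counts stayed at 0 under every setting. Signs turned, for values not called, with GC subtraction: TP53BP1 in clone 1 (0.0030), CEP192 and CEP152 in clone 2 (0.11 and 0.042), CEP192 in TetOn clone 4 (0.011), PLK4 and CEP152 in clone 2 minus clone 1 (0.012 and 0.081), CENPJ in RPE1 knockout minus clone 1 (-0.025), and CEP192, SASS6 and USP28 in RPE1 knockout minus clone 2 (-0.056, -0.031 and -0.036). Chromosome medians turned CEP192 in clone 2 (0.097), PLK4 in clone 2 minus clone 1 (0.012), CENPJ in RPE1 knockout minus clone 1 (-0.012) and CEP192 in RPE1 knockout minus clone 2 (-0.064). The cause was not tested. Over all genes, rescaling moved the calls to 1261 in RPE1 knockout, against 6963 as deposited, to 243 in clone 1, against 2388, and to 253 in clone 2, against 5898. The 1.5-fold minimum left 1646, 474, 1508, 8 and 11 in the 5 tables. With q under 0.01 the calls were 1450 in clone 1, against 2388 as deposited, 141 in TetOn clone 4 and 240 in TetOn clone 5, against 237 and 362 in the TetOn tables as deposited. GC subtraction left 3931 in clone 2.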
